A study of Mus musculus with 4 samples.

Results

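Of the 14979 genes in a gene count table from mouse colon tumours, 36 have a symbol that places them among the Hox genes or among other homeobox families known for marking position along the body and gut. They were taken by the start of the symbol (Hoxa to Hoxd, Meis, Pbx, the sine oculis family of Six4, Nkx, Msx, Irx, Pitx, Tgif2, Cux, Zeb, Zfhx, Pknox, Dlx, Lhx, Isl) or by name (Isx, Pdx1, Barx1, Barx2, Prrx1, Onecut2). The 36 consisted of 10 Hox protein-coding genes, 2 Hox non-coding RNAs (Hoxaas3 and Hoxa11os), and 7 Meis, Pbx and Pknox genes. A further 5 came from the zinc finger Zeb and Zfhx families, and 11 from other homeobox families. The remaining 1 was Islr, whose symbol starts like that of the Isl family but which encodes a leucine-rich repeat protein with an immunoglobulin domain and has no homeobox. In GENCODE M39, 114 protein-coding genes meet the same rule, and 33 of them were among the genes analysed here. Enough tags for a test were present for 35 of the 36 members. The exception was Six5, with 5, 5, 7 and 7 tags.

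The tumours came from AOM/DSS mice, in which the carcinogen azoxymethane is combined with dextran sulfate sodium, an agent that inflames the colon. Mice of 1 group received a control IgG antibody, and mice of the other received an anti-MAdCAM-1 antibody. MAdCAM-1 is a protein of gut venules that binds the lymphocyte integrin α4β7. Each group held 2 libraries, called IgG 1, IgG 2, MAdCAM1 1 and MAdCAM1 2, and values are listed in that order. Each library is taken here as 1 mouse, from the replicate numbers in the sample titles. The design text of the series speaks of several methods in 2 mice, which does not match the 4 samples, so the titles were followed. All 4 libraries came from colitis-associated tumours, so neither group was untreated tissue. Strain, sex, age, doses, the site of each tumour along the colon and the number of tumours behind a library are not given in the sources used here. RNA was read by CAGE (cap analysis of gene expression), in which each tag comes from the capped 5′ end of an RNA molecule, so that tag counts do not grow with gene length and levels can be compared between genes.

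Homeobox genes encode transcription factors that bind DNA through a homeodomain. Mammalian Hox genes lie in clusters named A to D, and their order along the chromosome follows the order of their expression along the body axis, so that high paralog numbers mark the hindgut and other posterior tissue. Meis, Pbx and Pknox proteins, of the TALE class, bind DNA together with Hox proteins, and Cdx factors act above Hox genes in the intestine. Adult tissues keep part of the Hox pattern of the place where they formed, in the epithelium as well as in the mesenchyme beneath it.

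The promoters of 4 Hox genes whose levels are described here are shown, and no link between these sequences and the levels was tested. Hoxa13, Hoxb13 and Hoxd13 are the group 13 genes of the 3 clusters with measured genes, and Hoxa7 had the smallest p of all members. Each run is the 250 bases before the annotated canonical start on GRCm39 (GENCODE M39), written 5′ to 3′ on the gene's own strand, and overlaps no annotated exon. Capitals mark matches to TATAAA, the TATA box, on either strand.
Hoxa13, chr6:52237823-52238072, minus strand: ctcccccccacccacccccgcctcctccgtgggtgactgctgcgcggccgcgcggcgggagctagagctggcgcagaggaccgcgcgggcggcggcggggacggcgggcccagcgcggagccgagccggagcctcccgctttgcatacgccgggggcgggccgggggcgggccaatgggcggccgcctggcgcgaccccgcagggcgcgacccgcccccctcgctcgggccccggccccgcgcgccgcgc
Hoxb13, chr11:96084856-96085105, plus strand: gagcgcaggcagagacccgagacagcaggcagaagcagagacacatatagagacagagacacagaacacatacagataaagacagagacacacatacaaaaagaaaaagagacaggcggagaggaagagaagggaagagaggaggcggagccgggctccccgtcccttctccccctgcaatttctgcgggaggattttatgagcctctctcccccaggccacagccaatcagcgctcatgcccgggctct
Hoxd13, chr2:74498404-74498653, plus strand: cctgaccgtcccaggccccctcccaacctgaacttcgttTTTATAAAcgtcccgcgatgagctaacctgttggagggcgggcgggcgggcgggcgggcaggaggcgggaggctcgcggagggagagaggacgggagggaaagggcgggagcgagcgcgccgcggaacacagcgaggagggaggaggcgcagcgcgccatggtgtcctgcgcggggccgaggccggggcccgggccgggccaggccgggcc
Hoxa7, chr6:52194486-52194735, minus strand: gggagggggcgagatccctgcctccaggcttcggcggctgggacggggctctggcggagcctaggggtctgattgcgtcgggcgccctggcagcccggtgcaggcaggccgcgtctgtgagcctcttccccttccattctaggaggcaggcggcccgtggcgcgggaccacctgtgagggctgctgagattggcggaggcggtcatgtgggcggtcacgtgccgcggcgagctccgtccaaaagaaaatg

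The Hoxa13 window had a GC content of 84.4% with 43 CpG dinucleotides, the Hoxd13 window 74.4% with 31 and the Hoxa7 window 70.0% with 23. The Hoxb13 window, at 55.6% and 9 CpG, was closest to the medians of 53.2% and 8 CpG over 21770 promoter windows of the same length. The Hoxd13 window held TATAAA on the gene's strand 209 bases before the start and, overlapping it, on the other strand 211 bases before the start. Of the 21770 windows, 11.9% held that motif. The other motifs, searched on both strands, were TTTACGA and TTTATTG (bound by group 13 Hox proteins), TTTATGG (Cdx) and TGACAG (Meis and Pknox). They stand in 0.528%, 3.99%, 2.3% and 14.6% of all windows, and their letters were not found in these 4. Hoxa7 has 5 annotated starts, of which the canonical one is shown, and each of the 3 group 13 genes has 1.

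The libraries held 14850923 to 16891234 tags, and 14331 genes were tested. Levels are in CPM, scaled by library size and TMM factor, and each log2 fold change is MAdCAM1 over IgG. The p-values measure the spread between these 4 libraries only, and an exact permutation test over 2 against 2 libraries cannot go below 0.333. The 5 smooth muscle markers measured, out of 6 with Myh11 not among the genes analysed, summed to 1657 and 1877 CPM in IgG 1 and MAdCAM1 2 but to 89.1 and 106 CPM in IgG 2 and MAdCAM1 1. The 6 fibroblast markers summed to 226 to 973 CPM, the 5 endothelial markers to 23.1 to 90.7 CPM and the 6 leukocyte markers to 138 to 605 CPM, each highest in MAdCAM1 2 and next in IgG 2. The 6 epithelial markers summed to 4644 and 4161 CPM in the IgG mice and to 7089 and 6387 CPM in MAdCAM1, with 5 of the 6 higher in both MAdCAM1 libraries. Of 6 stratified squamous markers 2 were measured, led by Krt4 at 63.3, 5.94, 0.70 and 78.5 CPM. Of 6 small intestine markers 2 were measured. Defa24, a Paneth cell defensin, stood at 239, 1127, 954 and 879 CPM, and its groups overlapped. Fabp6, the bile acid binding protein of the ileum, stood at 0.114, 0.0, 1.47 and 4.92 CPM, higher in both MAdCAM1 libraries. Its adjusted p was 0.665 by edgeR's quasi-likelihood test, 0.00365 by its exact test and 0.0201 by DESeq2. With 2 and 0 tags in the IgG mice, Fabp6 entered these tests only through its MAdCAM1 libraries. Of 6 enteric neuron and glia markers only Ret was measured, at 6.94 to 14.5 CPM. In bulk tissue, fewer cells of a type and less RNA per cell cannot be told apart.

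By edgeR's quasi-likelihood test, 0 of the 35 tested members were called at an adjusted p of 0.05, as were 0.0% of all tested genes, whose smallest adjusted p was 0.484. Adjusted p over the members ran from 0.640 to 0.9996. At an unadjusted p under 0.05 in that test, 4 members were higher in MAdCAM1 (Hoxa7, Hoxaas3, Nkx2-2 and Isx, 11.4%), against 5.09% of all genes, and 0 were lower, against 1.82%. The edgeR exact test called 3 members higher at an adjusted p of 0.05 (Hoxa7, Hoxaas3 and Nkx2-2, 8.57%), against 1.06% of all genes, and 0 lower, against 0.0628%. Nkx2-2, in both of these counts, entered the tests only through its MAdCAM1 libraries, so its direction was largely set by the filter. DESeq2 called 2 higher (Hoxa7 and Hoxaas3, 5.71%), against 1.53% of all genes, and 0 lower, against 0.14%, while limma-voom called 0 in either direction.

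In 7 members both MAdCAM1 libraries lay above both IgG libraries (20.0%), a share close to the 19.7% of all genes. These were Hoxa7, Hoxaas3, Hoxa10, Hoxa13, Hoxa11os, Nkx2-2 and Isx, of which 5 lie in the Hoxa cluster. Nkx2-2 passed the filter only through its MAdCAM1 libraries, which favours its place in this count. In 3 members, Irx5, Six4 and Zfhx3, both MAdCAM1 libraries lay below (8.57%), against 18.7% of all genes. The members as a whole had no common direction: 18 fold changes were above 0 and 17 below, with a median of 0.00, as over all genes. Protein-coding Hox genes had a median fold change of 0.32 on the log2 scale, with 9 of 10 above 0 (Hoxa9 at 0.08 turned to -0.01 under library size scaling). That median was 0.96 without IgG 1, 0.65 under limma-voom and 0.66 with the replicate block. The TALE genes had a median of -0.22, the 10 tested genes of other homeobox families -0.58 and the 5 zinc finger genes -0.18.

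**Figure D1:**
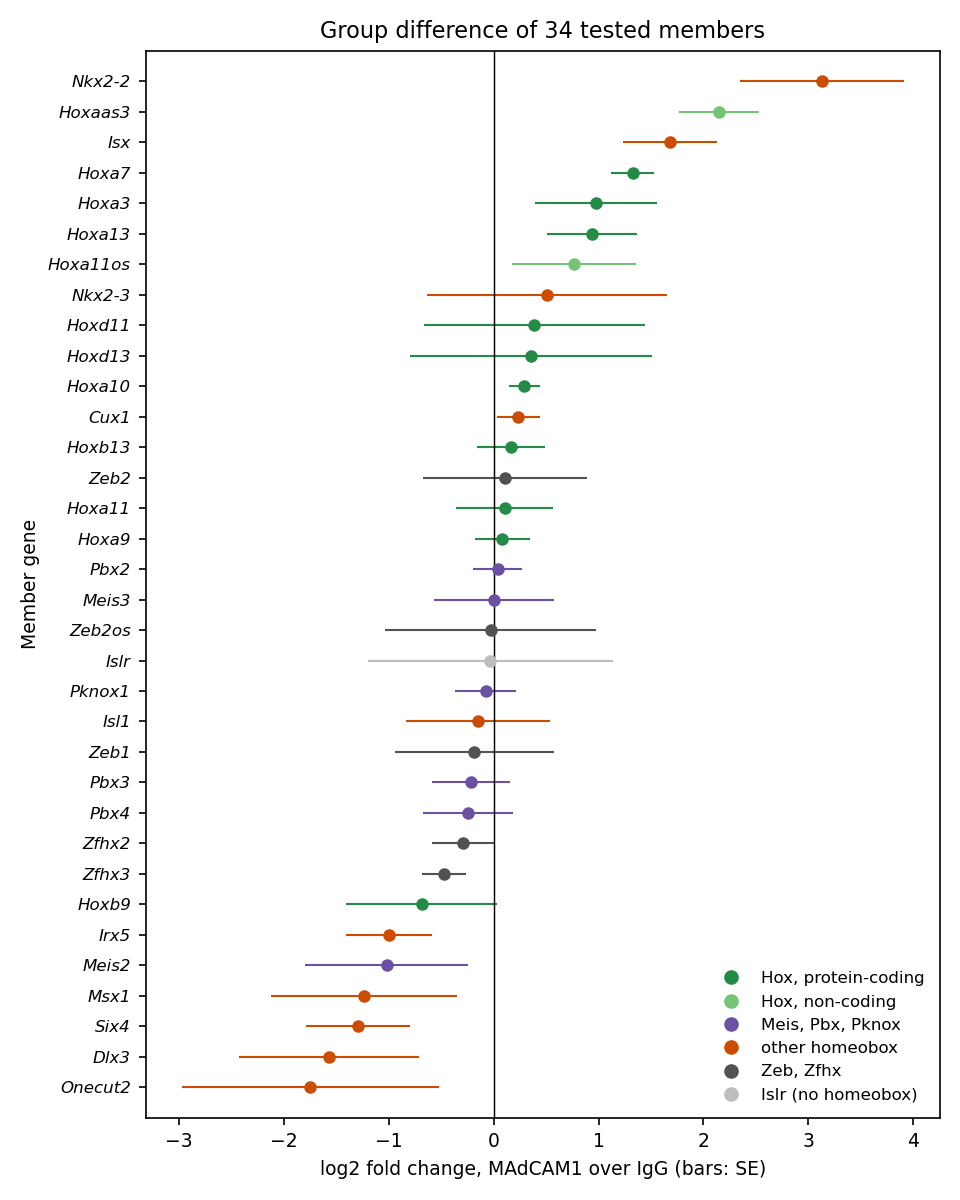
Log2 fold change (MAdCAM1 over IgG, x axis) of 34 of the 35 tested members (y axis), with bars of 1 SE from edgeR's quasi-likelihood fit on 2 libraries a group. Nkx2-2 (3.13), Hoxaas3 (2.15), Isx (1.68) and Hoxa7 (1.33) stand highest and Onecut2 (-1.75) lowest, and genes such as Hoxd13 and Nkx2-3 have bars that reach across 0.

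Members often differed between mice of the same group. The levels of 16 of the 35 (45.7%) differed at least 2-fold between the IgG mice, against 12.5% of all tested genes. Between the MAdCAM1 mice 9 members (25.7%) differed that much, against 11.2% of all genes. At 4-fold or more the members numbered 7 (20.0%, against 3.63% of all genes) in IgG and 5 (14.3%, against 4.24%) in MAdCAM1. IgG 2 held the lowest value of 15 members (42.9%, against 30.1% of all genes), among them 7 of the 10 Hox protein-coding genes. It also held the highest value of 10 members (28.6%, against 29.3%). These shares describe 4 libraries and were given no test.

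The measured Hox genes were mostly posterior ones, from the Hoxa, Hoxb and Hoxd clusters. Of 39 annotated Hox genes, 10 were among the genes analysed here: 6 of 11 in Hoxa, 2 of 10 in Hoxb, 2 of 9 in Hoxd and 0 of 9 in Hoxc. Their paralog numbers were 3, 7, 9, 10, 11 and 13, and 8 of the 10 belonged to groups 9 to 13. Those groups hold 16 of the 39 annotated genes. Cluster filters of the submitters may have removed expressed genes, so a gene not measured here is not shown to be silent. Hoxb13 was the most abundant Hox gene in each of the 4 libraries, at a mean of 149 CPM. Hoxa9 (mean 64.2 CPM), Hoxd13 (47.3 CPM) and Hoxa10 (44.6 CPM) followed. Hoxa9 was above Hoxa10 in each library. Hoxd13 was above both in IgG 1 and MAdCAM1 2 and below both in IgG 2 and MAdCAM1 1, so its place in the order lies within the spread between mice. Hoxa7 (15.9 CPM), Hoxa3 (14.8 CPM), Hoxa13 (13.3 CPM) and Hoxd11 (9.03 CPM) overlapped in their ranges. Hoxb9 (5.41 CPM) and Hoxa11 (2.23 CPM) had the lowest means and overlapped as well.

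**Figure D2:**
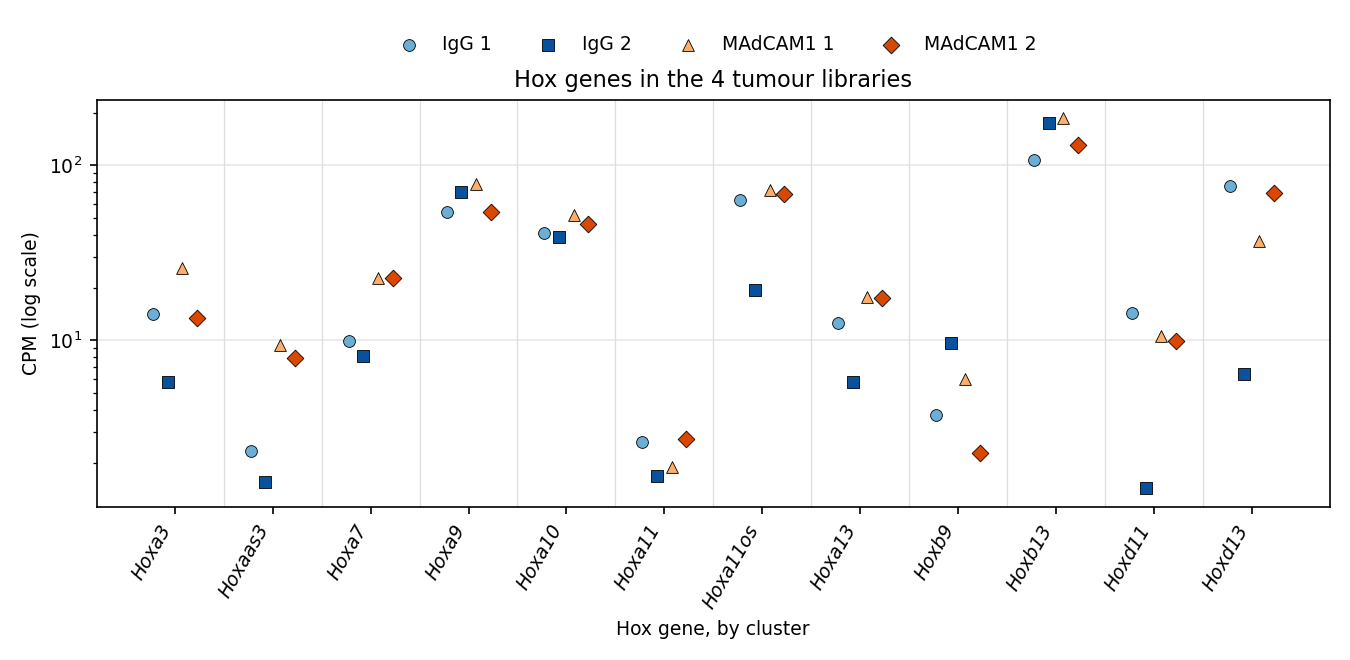
Level (CPM, log y axis) of the 10 Hox protein-coding genes and 2 Hox non-coding RNAs (x axis, by cluster), with 1 symbol per library. Hoxa7 and Hoxaas3 separate the MAdCAM1 triangles and diamonds from the IgG circles and squares, whereas the IgG 2 square alone lies low for Hoxd11 and Hoxd13.

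Paralog group 13 held 58.4% and 57.6% of the Hox tags in the IgG mice and 54.9% and 58.9% in MAdCAM1. Group 10, which is Hoxa10 alone, held 12.2%, 12.2%, 11.9% and 12.5%. Both groups thus took a similar part of the Hox tags in the 4 libraries, although the clusters that supplied group 13 differed between them. Group 9 held 17.2%, 25.0%, 19.3% and 15.3%, and group 11 held 5.01%, 0.960%, 2.85% and 3.44%. Group 3, which is Hoxa3 alone, held 4.22%, 1.79%, 5.93% and 3.63%. Group 7, which is Hoxa7 alone, was the only one of these 6 whose share was higher in both MAdCAM1 libraries, at 5.18% and 6.21% against 2.96% and 2.54%.

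Groups 9 to 13 together held 92.8% (exact binomial 95% interval 92.1 to 93.5) and 95.7% (95.1 to 96.2) of the Hox tags in IgG, and 88.9% (88.1 to 89.7) and 90.2% (89.4 to 90.9) in MAdCAM1. Both MAdCAM1 libraries were below both IgG libraries, at the smallest p the design allows (exact two-sided permutation test, p = 0.333). Without group 9 the shares were 75.7%, 70.7%, 69.6% and 74.9%, and the groups overlapped. The intervals cover counting error only. Outside groups 9 to 13 the only measured Hox genes were Hoxa3 and Hoxa7, so this share is fixed by theirs and is not a separate result. Hoxa7 held 2.96% and 2.54% of the Hox tags in IgG and 5.18% and 6.21% in MAdCAM1, whereas the shares of Hoxa3 overlapped. Fabp6, a small intestine marker at 0.114 and 0.0 CPM in the IgG mice and 1.47 and 4.92 CPM in MAdCAM1, separated the groups too. It entered the tests only through its MAdCAM1 libraries, so its separation was favoured by the filter. Defa24, the other small intestine marker measured, did not separate the groups. The part of either marker in the share of groups 9 to 13 was not tested.

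The Hoxa cluster, on chromosome 6, was the one cluster whose summed level separated the groups. Its 6 genes summed to 134 and 131 CPM in the IgG mice and to 199 and 156 CPM in MAdCAM1 (exact two-sided permutation test, p = 0.333, the smallest possible). The log2 ratio of the group means was 0.42, and 0.23 without MAdCAM1 1. As a share of Hox tags, the cluster held 39.9%, 40.8%, 45.4% and 42.5%. All 6 fold changes were above 0, with a median of 0.61, and 3 of the 6 genes were higher in both MAdCAM1 libraries, against 19.7% of all genes. The genes flanking the cluster had no common direction. Hottip, a non-coding RNA just beyond Hoxa13, stood at 0.968 and 1.18 CPM in the IgG mice and 2.45 and 1.49 CPM in MAdCAM1 (log2 fold change 0.87, SE 0.479). It was higher in both MAdCAM1 libraries, with an adjusted p of 0.768 in edgeR's quasi-likelihood test. Its 17, 19, 35 and 23 tags equal those of short RNAs annotated there. Evx1, a homeobox gene beyond Hoxa13, stood at 41.2 and 55.8 CPM in the IgG mice and 38.0 and 22.9 CPM in MAdCAM1 (log2 fold change -0.67, SE 0.325), and its antisense partner Evx1os at 16.9 and 37.05 CPM against 15.1 and 11.01 CPM (-1.05, SE 0.454). Both were lower in both MAdCAM1 libraries, and neither was called by edgeR or DESeq2. Skap2, on the other side, stood at 150, 166, 154 and 166 CPM. Hoxb sums of 111, 183, 192 and 132 CPM overlapped (p = 0.667 in the same exact permutation test), as did Hoxd sums of 90.8, 7.86, 47.5 and 79.1 CPM (p = 1.0). All 10 Hox genes together summed to 336 and 322 CPM in the IgG mice and 438 and 367 CPM in MAdCAM1, without overlap.

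**Figure D3:**
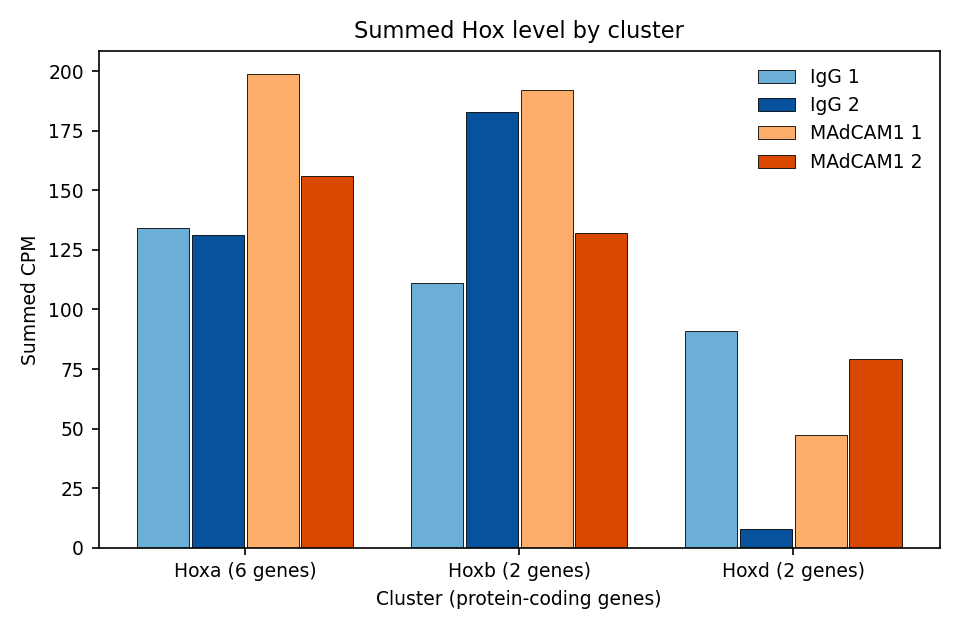
Summed level (CPM, y axis from 0) of the measured protein-coding genes of each Hox cluster (x axis), with 1 bar per library and no error bar because each bar is 1 library. Hoxa bars are higher in both MAdCAM1 libraries, and the Hoxd bar of IgG 2 stands at 7.86 CPM against 47.5 to 90.8 CPM in the other libraries.

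Hoxa7, a patterning factor from the middle of the cluster (chr6:52191471-52198834, minus strand), had the smallest p of all members. Its levels were 9.96 and 8.16 CPM in the IgG mice and 22.7 and 22.8 CPM in MAdCAM1, from 175, 132, 324 and 352 tags. Both MAdCAM1 libraries were above both IgG libraries, and the mice within each group lay close together. The log2 fold change was 1.33 (SE 0.207), with an adjusted p of 0.640 in edgeR's quasi-likelihood test, 0.0407 in edgeR's exact test and 0.00437 in DESeq2. Hoxaas3, a non-coding RNA read from the opposite strand (chr6:52152197-52192056), overlaps the 3′ end of Hoxa7 and most of the Hoxa3 locus. Its levels were 2.33 and 1.55 CPM in the IgG mice and 9.38 and 7.90 CPM in MAdCAM1, again without overlap. The log2 fold change was 2.15 (SE 0.377), with an adjusted p of 0.665 by quasi-likelihood, 0.0122 by the edgeR exact test and 0.00667 by DESeq2. Whether the counting used strand is not given in the sources used here, so reads of this antisense pair may not be fully separate. The summed epithelial markers were likewise higher in both MAdCAM1 libraries (4644 and 4161 CPM against 7089 and 6387 CPM), and their part in the result was not tested.

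Hoxa13, which patterns the hindgut and the distal limb (chr6:52234602-52237822, minus strand), stood at 12.5 and 5.75 CPM in the IgG mice and at 17.6 and 17.4 CPM in MAdCAM1. The groups did not overlap, but the IgG mice differed 2.18-fold (log2 fold change 0.94, SE 0.426, quasi-likelihood adjusted p = 0.759 in edgeR). Without IgG 2 the log2 fold change was 0.48. Hoxa10 was steadier, at 41.0 and 39.2 CPM against 52.1 and 46.0 CPM, with a log2 fold change of 0.29 (SE 0.1495). Its neighbour Hoxa9, an abundant gene also active in blood-forming cells, stood at 54.0, 70.8, 78.4 and 53.8 CPM, and its groups overlapped fully (0.08, SE 0.260). The miRNA gene Mir196b, which lies within Hoxa9 on the same strand, had 2.22 and 2.04 CPM in the IgG mice and 4.97 and 3.50 CPM in MAdCAM1 (0.99, SE 0.388, edgeR adjusted p = 0.731).

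Hoxa3, the most anterior Hox gene measured, stood at 14.2, 5.75, 26.0 and 13.3 CPM, so that the groups overlapped (log2 fold change 0.98, SE 0.584). Its tags equal those of the non-coding gene Gm28308, which overlaps it on the same strand, in all 4 libraries, so they cannot be assigned to Hoxa3 alone. Hoxa11, known from limb and uterus, was scarce at 2.62, 1.67, 1.89 and 2.72 CPM (0.10, SE 0.461). The non-coding RNA on its opposite strand, Hoxa11os, was far more abundant, at 63.5, 19.4, 72.2 and 68.6 CPM. Both MAdCAM1 libraries were above both IgG libraries, by little over IgG 1 and by more over IgG 2 (0.76, SE 0.590, edgeR adjusted p = 0.845). IgG 2 was 3.27-fold below the next library there. A short RNA annotated inside Hoxa11os on the same strand, Gm56036, has 1075, 300, 990 and 1015 tags against 1115, 314, 1031 and 1059 for Hoxa11os, so these tags cannot be assigned to 1 gene.

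Hoxb13, a marker of the distal colon, rectum and prostate (chr11:96085106-96088273, plus strand), had the highest level of all members but did not separate the groups. Its levels were 107, 173, 186 and 130 CPM, with the extremes in IgG 1 and MAdCAM1 1 (log2 fold change 0.17, SE 0.324, edgeR adjusted p = 0.947). The fold change was 0.55 without IgG 2 and -0.15 without IgG 1. Hoxb9, the other measured gene of the cluster, stood at 3.76, 9.59, 6.02 and 2.27 CPM, highest in IgG 2 and lowest in MAdCAM1 2 (-0.69, SE 0.722).

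The Hoxd cluster, on chromosome 2, differed most between the IgG mice, with a low level in IgG 2. Hoxd13, which patterns the hindgut wall, anal region and digits (chr2:74498654-74501943, plus strand), was read with 1345, 104, 527 and 1068 tags. These correspond to 76.5, 6.43, 36.9 and 69.2 CPM. IgG 1 was 11.9-fold above IgG 2, and every other library was at least 5.74-fold above it, so the IgG mice spanned both MAdCAM1 mice. The log2 fold change was 0.35 (SE 1.155, edgeR adjusted p = 0.968), and was -0.53 without IgG 2 and 3.03 without IgG 1. Hoxd11 (chr2:74509901-74517360, plus strand) followed the same order for IgG 2, at 14.2, 1.42, 10.6 and 9.91 CPM (0.39, SE 1.054). IgG 2 lay 6.96-fold below the next library.

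Hoxd genes held 27.0% (exact binomial 95% interval 25.9 to 28.2) of the Hox tags in IgG 1, 2.44% (2.04 to 2.90) in IgG 2, 10.8% (10.1 to 11.6) in MAdCAM1 1 and 21.5% (20.5 to 22.6) in MAdCAM1 2. Hoxb genes took the larger share where Hoxd was low, at 33.1%, 56.8%, 43.8% and 36.0%. The flanking genes did not differ between libraries to that degree. Mtx2, on the 3′ side of the cluster, stood at 126, 119, 116 and 121 CPM, and Lnpk, on the 5′ side, at 26.1, 18.9, 31.6 and 33.9 CPM. Evx2, a homeobox gene beside Hoxd13, was near the limit of the test at 0.797, 0.371, 0.490 and 0.907 CPM. Smooth muscle markers were low in IgG 2 (89.1 CPM) and also in MAdCAM1 1 (106 CPM), where Hoxd13 stood at 36.9 CPM, and their part in the result was not tested.

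The 7 TALE genes, which encode partners of Hox proteins, overlapped between the groups in all 7 cases, and none had an unadjusted p under 0.05 or was called by the exact test, DESeq2 or limma-voom. Their adjusted p in edgeR's quasi-likelihood test ran from 0.845 to 0.9996. Meis2 stood at 12.9, 3.84, 2.45 and 5.76 CPM, highest in IgG 1 (log2 fold change -1.02, SE 0.776, and 0.09 without IgG 1). MAdCAM1 2 was next. Those 2 are the libraries with 1657 and 1877 CPM of smooth muscle markers, whose part in the result was not tested. Meis3 stood at 2.33, 4.58, 2.31 and 4.60 CPM, with almost equal group means (0.00, SE 0.571).

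Other TALE genes varied little. Pbx2 stood at 15.5, 12.6, 15.8 and 13.02 CPM (log2 fold change 0.04, SE 0.232), Pbx3 at 3.53, 4.82, 3.29 and 3.89 CPM (-0.22, SE 0.369) and Pbx4 at 1.82, 2.35, 2.03 and 1.49 CPM (-0.24, SE 0.426). Pknox1, also called Prep1, stood at 9.39, 7.42, 7.07 and 8.87 CPM (-0.08, SE 0.291). In these 4 genes the groups differed by less than the spread between mice.

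Nkx2-2, Isx and Isl1 are members known from gut epithelial and endocrine cells. Nkx2-2, which enteroendocrine cells need to form, was read with 6 and 1 tags in the IgG mice and 27 and 28 tags in MAdCAM1, or 0.341, 0.062, 1.89 and 1.81 CPM. The groups did not overlap, and the gene entered the test only through its MAdCAM1 libraries (log2 fold change 3.13, SE 0.783). Its adjusted p was 0.677 by quasi-likelihood, 0.0190 by edgeR's exact test and 0.303 by DESeq2, so the call rests on 1 tool and few tags. Isx, an intestine-specific homeobox gene that restrains vitamin A uptake, had 15 and 11 tags in the IgG mice and 30 and 44 in MAdCAM1. Its levels of 0.854, 0.680, 2.10 and 2.85 CPM did not overlap between the groups (1.68, SE 0.447, edgeR adjusted p = 0.691 by quasi-likelihood and 0.267 by the exact test). Of the epithelial markers 5 of 6, and Fabp6 but not Defa24 of the small intestine markers, were likewise higher in both MAdCAM1 libraries. Fabp6, like Nkx2-2, entered the tests only through those libraries. The part of these markers in the results was not tested. Isl1, found in enteroendocrine cells and in neurons, stood at 32.7, 8.54, 21.5 and 15.7 CPM, with both extremes in IgG (-0.15, SE 0.685).

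Nkx2-3, a factor of gut mesoderm and of the venules that carry MAdCAM-1, stood at 0.911, 4.02, 0.980 and 6.02 CPM. It was high in IgG 2 and MAdCAM1 2 and low in the other library of each group (log2 fold change 0.51, SE 1.144). The sum of the 6 fibroblast markers had the same order of libraries, at 226, 717, 251 and 973 CPM. Singly, Pdgfra, Col1a1 and Col6a2 had that order, and Dcn, Lum and Dpt did not. Lum, at 8.88, 1.86, 1.26 and 10.7 CPM, was low in IgG 2. The sums of the 6 leukocyte markers (169, 490, 138 and 605 CPM) and the 5 endothelial markers (34.9, 68.3, 23.1 and 90.7 CPM) had the order of Nkx2-3 apart from the lowest pair. Of their single genes, Cd3g, Cd79a and Cdh5 had another order, and the part of these lists in the result was not tested. Cux1, a widely expressed cut-homeobox factor and the most abundant member outside the Hox genes, stood at 54.4, 39.4, 56.7 and 53.6 CPM (0.23, SE 0.207).

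Onecut2, Dlx3 and Msx1 were high in IgG 2 alone. Onecut2, of the HNF6 family known from liver and pancreas, stood at 3.47, 28.8, 7.63 and 1.94 CPM, with IgG 2 at 3.77 times the next library. Dlx3, known from epidermis and hair, stood at 7.63, 38.3, 9.87 and 5.57 CPM, with IgG 2 at 3.88 times the next. Msx1, a factor induced by BMP signals in many embryonic tissues, stood at 3.42, 14.8, 5.53 and 2.20 CPM, with IgG 2 at 2.67 times the next. Their log2 fold changes were -1.75 (SE 1.225), -1.57 (SE 0.860) and -1.23 (SE 0.888). Without IgG 2 they were 0.45, 0.01 and 0.17, so the lower level in MAdCAM1 rested on that library for all 3.

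The 2 members of other homeobox families that were lower in both MAdCAM1 libraries were Irx5 and Six4. Irx5, an Iroquois factor, stood at 12.5 and 15.1 CPM in the IgG mice and 9.17 and 4.60 CPM in MAdCAM1 (log2 fold change -1.001, SE 0.412, edgeR adjusted p = 0.731). The MAdCAM1 mice differed from each other by about as much as the groups did. Six4, known from muscle and sensory organ development, stood at 1.88 and 2.91 CPM in the IgG mice and 0.770 and 1.17 CPM in MAdCAM1 (-1.29, SE 0.495, edgeR adjusted p = 0.726). Its locus overlaps Mnat1 on the opposite strand. Mnat1 had 482, 383, 274 and 300 tags, against 33, 47, 11 and 18 for Six4. Whether the counting used strand is not given, so the tags of this pair may not be fully separate. Neither Irx5 nor Six4 was called by the exact test or DESeq2.

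**Figure D4:**
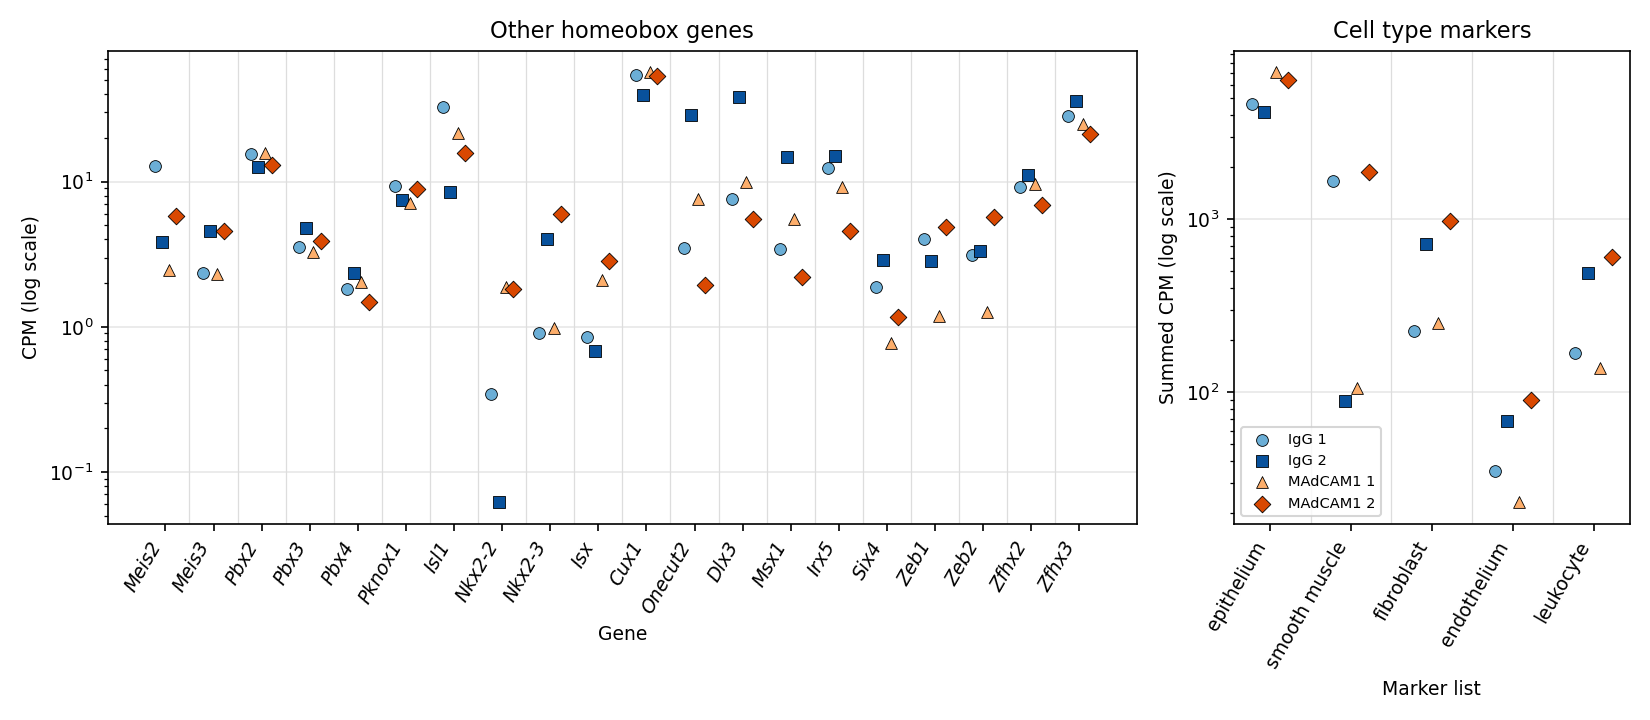
Level (CPM, log y axis) of members outside the Hox clusters (left, x axis by family) and summed level of 5 cell type marker lists (right, log y axis), with 1 symbol per library. Onecut2, Dlx3 and Msx1 have the IgG 2 square alone at the top, and the smooth muscle sums of IgG 2 and MAdCAM1 1 lie at 89.1 and 106 CPM, far below 1657 and 1877 CPM in the other libraries.

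Among the zinc finger homeobox genes only Zfhx3, also called Atbf1, did not overlap between the groups. It stood at 28.3 and 36.1 CPM in the IgG mice and 25.0 and 21.3 CPM in MAdCAM1 (log2 fold change -0.48, SE 0.208, edgeR adjusted p = 0.751). Its relative Zfhx2 stood at 9.16, 11.1, 9.66 and 6.86 CPM (-0.29, SE 0.299). Zeb1 and Zeb2, repressors of epithelial genes that are found in stromal and immune cells, differed within MAdCAM1 rather than between the groups. Zeb1 stood at 4.04, 2.85, 1.19 and 4.86 CPM (-0.18, SE 0.758) and Zeb2 at 3.13, 3.34, 1.26 and 5.70 CPM (0.11, SE 0.781). Both were lowest in MAdCAM1 1 and highest in MAdCAM1 2. So were the sums of the leukocyte markers (138 and 605 CPM) and of the endothelial markers (23.1 and 90.7 CPM). Between the IgG mice, Zeb1 was higher in IgG 1, whereas both sums were higher in IgG 2. The part of these markers in the result was not tested. Islr, a stromal gene without a homeobox, was likewise lowest in MAdCAM1 1 at 0.280 CPM and highest in MAdCAM1 2 at 3.37 CPM. The antisense RNA Zeb2os had 0.140 to 0.907 CPM.

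Factors of hindgut identity, a list of 16 genes of which 12 were tested, included some that were higher in MAdCAM1: 5 of 12 were higher in both MAdCAM1 libraries, against 19.7% of all genes, and 0 were lower in both, against 18.7% (median log2 fold change 0.18). None was called by quasi-likelihood, the exact test or DESeq2, and 3, all higher, had an unadjusted p under 0.05 in the quasi-likelihood test, against 5.09% of all genes. Cdx2, a caudal factor upstream of Hox genes, stood at 5.52 and 3.71 CPM in the IgG mice and 16.9 and 9.52 CPM in MAdCAM1 (1.51, SE 0.422, edgeR adjusted p = 0.691). Cdx1 stood at 49.2 and 22.5 CPM against 91.6 and 99.7 CPM (1.42, SE 0.413). Hnf4a, a nuclear receptor of gut epithelium, stood at 175 and 110 CPM against 236 and 254 CPM (0.78, SE 0.269). Prac1, Gata4, Osr1 and Osr2 were not among the genes analysed here. The epithelial markers, higher in both MAdCAM1 libraries for 5 of 6, moved with these factors. So did Fabp6 of the small intestine markers, which entered the tests only through its MAdCAM1 libraries. Defa24 overlapped between the groups, and the part of these markers in the result was not tested.

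Polycomb proteins keep Hox loci silent through histone marks. Of 21 tested genes of a list of 22, 10 were lower in both MAdCAM1 libraries, against 18.7% of all genes, and 2 were higher in both, against 19.7% (median log2 fold change -0.26). None was called by edgeR's quasi-likelihood or exact test, DESeq2 called 1 lower, against 0.14% of all genes, and 2, both lower, had an unadjusted quasi-likelihood p under 0.05, against 1.82%. Cbx6, a chromodomain subunit of Polycomb complexes, stood at 72.9 and 98.1 CPM against 53.6 and 41.8 CPM (-0.84, SE 0.228, edgeR adjusted p = 0.691, DESeq2 adjusted p = 0.144). Its tags equal those of Npcd in each library, so they cannot be assigned to Cbx6 alone. Cbx8 (-0.51) and Rbbp7 (-0.32) were lower in both as well. The opposing Trithorax group, 15 tested of 16, had 0 genes higher in both and 3 lower in both, with a median of -0.11, and 0 passed an unadjusted quasi-likelihood p of 0.05, the exact test or DESeq2.

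Retinoic acid induces Hox genes in a graded way in the embryo. Of 10 tested genes of a list of 18, 1 was higher in both MAdCAM1 libraries, against 19.7% of all genes, and 4 were lower in both, against 18.7% (median log2 fold change -0.23). None passed an unadjusted quasi-likelihood p of 0.05, the edgeR exact test or DESeq2. Rarb, a retinoic acid receptor and target, stood at 14.7, 58.7, 11.1 and 7.51 CPM (-1.98, SE 0.742, edgeR adjusted p = 0.721), set largely by IgG 2. Stra6, which takes up retinol, stood at 80.3, 135, 58.6 and 24.2 CPM (-1.38, SE 0.527, edgeR adjusted p = 0.731). Partners of Zeb factors in epithelial-mesenchymal transition, 13 tested of 15, had 3 genes higher in both and 2 lower in both, with 0 passing any of these tests and a median of 0.03 that turned to -0.07 under library size scaling. Vim, an intermediate filament of mesenchyme, was lower at 212 and 309 CPM against 151 and 186 CPM (-0.63, SE 0.251), and Cdh1, the epithelial cadherin, was higher at 474 and 360 CPM against 620 and 525 CPM (0.46, SE 0.210), neither of them called by edgeR or DESeq2.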

How the data were processed

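RNA from tumours of AOM/DSS mice was profiled by CAGE in 4 libraries, each taken as 1 mouse. Per the labels' protocols, RNA had an integrity number above 7.0, cDNA was made with random primers and selected by cap-trapping, and single ends of 75 nt were read. Tags were mapped to GRCm39 with BWA 0.7.17 and HISAT2 2.0.5 and clustered with RECLU, per the same protocols. The tools bedtools 2.12.0 and edgeR 3.22.5 are also named in the submitters' processing notes. Clusters under 0.1 CPM, with an irreproducible discovery rate not under 0.1, or longer than 200 bp were dropped per the labels' protocols, as were regions overlapping by less than 90% between replicates. The authors deposited raw tag counts per gene, checked here to be whole numbers. How clusters were summed to genes, and whether strand was used, is not given in the sources used here.

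The members and gene lists were chosen with earlier results of these data known. All genes were fitted in edgeR 4.0.16 under R 4.3.3 (filterByExpr by group, TMM, robust quasi-likelihood F test, Benjamini-Hochberg over 14331 genes, adjusted p threshold 0.05), with no covariate. Each SE is the absolute log2 fold change divided by the square root of the test's F. The filter asks for about 10 tags, a CPM of 0.632, in 2 libraries. Nkx2-2 and the marker Fabp6 passed through their MAdCAM1 libraries only, and Islr through both IgG libraries and 1 MAdCAM1 library. A single tag equals 0.0569 to 0.0700 CPM. Named with values were all Hox and TALE genes, members without overlap and at least 1 in log2 fold change, the 5 of smallest p in each direction, the 5 others of highest level, and up to 4 genes per list. Nkx2-3, the Zeb genes, Islr, and genes that flank or overlap members (Mir196b among them) were added with their values known. Alternatives were RLE, library size and upper quartile scaling, no filter, a minimum CPM of 1 in 2 libraries, DESeq2 1.42.0, limma-voom (limma 3.58.1), edgeR's exact test, a replicate block, identical genes counted once, and each library left out. A few genes are counted in their groups but not reported by name. Scripts were tested on simulated data. Promoters were read from GRCm39 with GENCODE M39 starts, and no column was left out.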

Additional observations from a re-analysis of the deposited data

How the results depend on the processing

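With 0 genes called by quasi-likelihood, the count stayed at 0 genes and 0 members under RLE, library size and upper quartile scaling, both other filters, limma-voom, identical genes counted once and each library left out. DESeq2 called 239 genes and 2 members, and the exact test 161 genes and 3 members; the cause was not tested. Members without overlap numbered 7 higher and 3 lower; with a library left out they numbered 10 to 15 and 9 to 11, where fewer libraries make separation easier. The median log2 fold change of Hox genes (0.32) ranged from 0.27 to 0.96 with a library left out, the highest without IgG 1, and was 0.22 under library size scaling, 0.65 under limma-voom and 0.66 with the replicate block. With a library left out, the summed Hoxa level (0.42) ranged from 0.23 without MAdCAM1 1 to 0.58, and the summed Hoxd level (0.36) from -0.52 without IgG 2 to 3.01 without IgG 1. The posterior share, lower by 4.72 points in MAdCAM1 over groups 9 to 13 (a difference of -4.72), differed by -0.93 points over groups 10 to 13.

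Of 36 single genes, 16 kept their direction in every alternative and 20 turned in at least 1, or 41 of 503 values. Library size scaling, which moves the median of all genes to -0.10, turned Pbx2 (-0.0616), Hoxa9 (-0.0139) and Meis3 (-0.0897). Upper quartile scaling turned Meis3 (-0.0171), and limma-voom turned Zeb2 (-0.23) and Isl1 (0.10). With a library left out, the log2 fold changes that turned ranged as follows. In the Hox genes, Hoxd13 ranged from -0.53 to 3.03, Hoxd11 from -0.48 to 2.82, Hoxb13 from -0.15 to 0.55, Hoxb9 from -1.55 to 0.13, Hoxa9 from -0.21 to 0.33 and Hoxa11 from -0.19 to 0.45. In the TALE genes, Meis2 ranged from -1.77 to 0.0905, Meis3 from -0.58 to 0.56, Pbx2 from -0.11 to 0.18, Pbx3 from -0.44 to 0.0195 and Pknox1 from -0.25 to 0.0896. Elsewhere, Dlx3 ranged from -2.33 to 0.0072, Onecut2 from -3.05 to 0.45, Msx1 from -2.04 to 0.17, Isl1 from -0.82 to 1.10 and Nkx2-3 from -1.32 to 1.94. Zeb1 ranged from -1.53 to 0.49, Zeb2 from -1.35 to 0.81, Zeb2os from -1.89 to 0.74 and Islr from -2.71 to 0.84.

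The shared replicate numbers are taken to belong to different mice. Deviations from the group mean were only weakly and negatively related between same-numbered libraries (r = -0.135 across genes, which are not independent). With 2 libraries a group, r is the same for both numbers by construction, so it is a single check. The numbers were not taken as pairs. The replicate block called 0 genes and 0 members, and turned Zeb2 (-0.23), Meis3 (-0.0035) and Isl1 (0.12). The crossed pairing, added after seeing the data, also called 0 genes and 0 members. Depth limits the scarcest members: Six5 had at most 7 tags in a library, Zeb2os at most 14 and Nkx2-2 at most 28.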
